A study of Rattus norvegicus with 2 samples.

Results

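Plvap or Selp endothelial cells were vessel lining cells of the dorsal root ganglion (DRG) whose UMI counts of Plvap and Selp together exceeded those of 3 efflux and uptake transporters, Abcb1a, Abcg2 and Slco1a4. A barcode was kept if it had at least 1000 UMIs (unique molecular identifiers, each standing for 1 captured mRNA molecule) with under 20% of them from mitochondrial symbols. It passed the endothelial gate if Cldn5, Flt1 and Cdh5 summed to at least 10 per 10000 UMIs, while the satellite glia genes Fabp7 and Tyrp1 stayed under 12 and the mural genes Tagln and Acta2 under 20 per 10000. Of 24179 barcodes, 20811 were kept, 1951 passed the endothelial gate and 120 of those had the lead of Plvap and Selp, 63 in the Control library and 57 in the DPN library. The other 1831 cells of the gate, 711 in Control and 1120 in DPN, are called barrier-type cells here and served as the reference. The cells were thus selected on measured UMIs of these genes, whose levels describe the selection and are no result.

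The study asked how single cells of rat DRGs differ in diabetic peripheral neuropathy (DPN). Male Sprague-Dawley rats, 8 weeks old at the start, received 1 intraperitoneal injection of streptozotocin (STZ, a toxin of the insulin-producing beta cells) at 65 mg/kg in citrate buffer (DPN) or citrate buffer alone (Control). Lower lumbar DRGs of both sides were taken 8 weeks after the injection, those of 5 rats per condition were pooled, dissociated with collagenase and trypsin, cleared of dead cells and sequenced as 1 droplet library from 10x Genomics per condition. With 1 pool per condition there was no replicate, so no test between DPN and Control was made. Every interval covers counting error only and leaves out the spread between cells, rats and preparations.

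Plvap encodes the protein of the diaphragms that span fenestrae and caveolae, and it marks permeable endothelium, which brain capillaries with a mature barrier largely lack. Selp encodes P-selectin, which venular endothelium stores in Weibel-Palade bodies beside von Willebrand factor (Vwf) and moves to its surface, where leukocytes roll on it. In the DRG, the vessels around neuron cell bodies are known to be leakier than those of the nerve trunk or the spinal cord.

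The 63 Control cells held 613735 UMIs (median 7154 per cell, range 1084 to 39015), and the 57 DPN cells held 401260 UMIs (median 5952, range 1033 to 31810). The median number of genes was 2130 in Control and 2036 in DPN, and mitochondrial symbols took 8.28% and 7.2% of the UMIs. Barrier-type cells were deeper, with medians of 10410 and 9166 UMIs. The libraries shared 38 barcodes, none of them among these cells. A doublet score marked 3 Control and 4 DPN cells as likely doublets, which were kept. The cells made up 0.643% of kept Control barcodes (exact 95% interval 0.494 to 0.822) and 0.518% of kept DPN barcodes (0.392 to 0.670). Of the cells of the endothelial gate they were 8.14% in Control (6.31 to 10.3) and 4.84% in DPN (3.69 to 6.23). These shares follow from the UMI lead that the rule set. Depth differed between the libraries, with medians of 8993 UMIs per barcode in Control and 5919 in DPN. A difference in share between the conditions was not tested.

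The rule cut through a continuous range. The lead over the transporters had a median of 5 UMIs in Control and 3 in DPN, with highest leads of 102 and 47. Just inside the limit, 9 Control and 12 DPN cells led by 1 UMI and 10 and 11 cells by 2 UMIs. Just outside it, 29 Control and 43 DPN cells were tied, of which 12 and 28 had no UMI of any of the 5 genes, and 27 and 45 cells were behind by 1 UMI. No UMI of the 3 transporters was counted in 8 Control and 15 DPN cells, so most of the cells carried transporter mRNA as well.

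The label was checked against endothelial markers that the rule did not use. Emcn (endomucin, a glycoprotein of capillary and venous endothelium) had UMIs in 56 of 63 Control and 52 of 57 DPN cells, Kdr (the main signalling receptor of VEGF) in 51 and 37, Ptprb (the endothelial phosphatase VE-PTP) in 42 and 41 and Tek (the angiopoietin receptor TIE2) in 30 and 37. Satellite glia held each of these 4 genes at 3.18 CPM or less (the UMIs of a gene in the summed cells of a library, scaled to the total of those cells as in bulk RNA-seq), and these cells at 119 CPM or more. The values of Plvap and Selp, which follow, describe the selection. Plvap had UMIs in 58 Control cells (92.1%) and 52 DPN cells (91.2%), against 0.851% and 0.905% of satellite glia, which should lack it and had median depths of 13776 and 11145 UMIs. Selp had UMIs in 32 Control cells (50.8%) and 34 DPN cells (59.6%), against 0.316% and 0.537% of satellite glia. Of these cells, 57 in Control and 51 in DPN reached 2000 UMIs and were thinned to that depth, as were satellite glia. Plvap then was found in 73.7% and 76.5% of the cells and in 0.147% and 0.204% of satellite glia, and Selp in 47.4% and 49.0% against 0.0245% and 0.0679%. Neither gene was particular to these cells. In barrier-type cells Plvap had UMIs in 66.9% of Control and 60.4% of DPN cells, and Selp in 28.7% and 20.4%. Thinned to 2000 UMIs, barrier-type cells had Plvap in 41.5% and 35.6% and Selp in 12.6% and 8.87%. In 27 Control and 29 DPN cells of the part there were UMIs of both Plvap and Selp.

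Marker lists of other cells were low in both libraries, except that of red blood cells in Control. The macrophage list (Mrc1, Csf1r, C1qa and Ptprc at 0) summed to 19.6 CPM in Control and 9.97 in DPN, the fibroblast list (Pdgfra and Egfr at 0) to 17.9 and 49.8, and 7 of the 8 neutrophil and platelet markers were at 0. Neuron markers summed to 181 and 404 CPM, with a UMI in 54 Control and 53 DPN cells. Schwann cell markers summed to 165 and 224 CPM, with 41.6% and 34.4% of their UMIs from 1 cell of each library. Without the genes that the rule limited, mural markers summed to 130 and 214 CPM and satellite glia markers to 58.7 and 32.4. The lymphatic list summed to 29.3 and 112 CPM with Ccl21 at 0. Prox1, the regulator of lymphatic identity, had 1 UMI in Control and 8 in DPN, and 6 DPN cells carried it. The red blood cell list reached 3590 CPM in Control and 0 in DPN, and 1 Control cell with 2096 UMIs of Hba-a2 among 17320 held 99.9% of it. The part of these lists in the ratios given here was not tested.

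The cells divided into those led by Plvap and those led by Selp. Selp had more UMIs than Plvap in 22 of 63 Control cells (34.9%, exact 95% interval 23.3 to 48.0) and in 22 of 57 DPN cells (38.6%, 26.0 to 52.4). Plvap had more in 41 Control and 34 DPN cells, and 1 DPN cell had equal counts. Plvap ranged from 0 to 61.7 per 10000 UMIs in Control cells (median 9.38) and from 0 to 29.7 in DPN cells (median 9.68). Selp ranged from 0 to 64.6 (median 0.577) in Control and from 0 to 38.7 (median 2.74) in DPN, so that it was absent from many cells and high in a minority of them. Selp-led cells were deeper (median 10659 and 8390 UMIs) than Plvap-led cells (5764 and 5599.5). Over the summed cells, Plvap was at 1017 CPM in Control and 905 in DPN (ratio 0.890, 0.780 to 1.01) and Selp at 1066 and 1032 (ratio 0.968, 0.854 to 1.10).

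**Figure D1:**
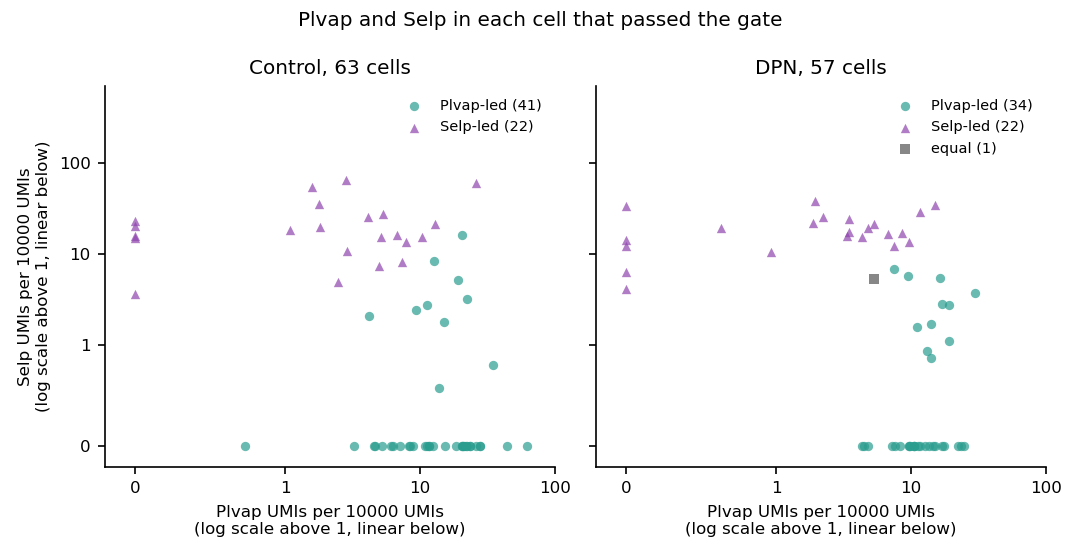
Selp against Plvap in each cell, in UMIs per 10000 UMIs of the cell (both axes logarithmic above 1 and linear below), for the 63 Control cells (left) and the 57 DPN cells (right). Circles are Plvap-led cells, triangles Selp-led cells and the square the 1 DPN cell with equal counts, and most Plvap-led cells lie on the line without Selp while most Selp-led cells carry some Plvap.

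Against barrier-type cells, the contrast that the rule itself set, 1419 genes had a UMI in at least 10% of the cells of a library and at least 100 UMIs over both. At least 2-fold higher in both libraries were 27 of them (1.90%), and at least 2-fold lower were 19 (1.34%). These values describe the selection, and nothing is read from the counts. Sele (E-selectin), an adhesion molecule of venules, stood first. It was 18.1-fold higher in Control (12.6 to 26.2) and 22.6-fold in DPN (16.9 to 30.1), and it came from 10 cells in each library. Rtp3 came next, at 8.52-fold (5.72 to 12.5) and 13.6-fold (9.95 to 18.3). Vcam1, the ligand of leukocyte integrins, was 7.26-fold and 6.16-fold higher, and Selp, a gene of the rule, 8.01-fold and 10.6-fold. The water channel Aqp1 was 3.86-fold higher in Control (3.52 to 4.24) and 3.14-fold in DPN (2.84 to 3.47). Vwf was 2.75-fold and 7.92-fold higher and Ramp3, a partner of the adrenomedullin receptor, 3.21-fold and 2.64-fold. The S100 genes S100a10, S100a11 and S100a6 were between 2.44-fold and 4.52-fold higher, though satellite glia held S100a10 at a similar or higher level (1779 and 1172 CPM, against 1059 and 1306 CPM in the cells). Neurl3, Pdlim1, Igfbp5 and Cxcl11 complete the 15 highest together with Plvap.

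The genes that were lower than in barrier-type cells held 3 transporters outside the rule. The zinc and metal transporters Slc39a10 and Slc39a8 stood at 0.247 and 0.287 of the barrier-type level in Control and at 0.166 and 0.164 in DPN. Slc2a1, the glucose transporter of barrier capillaries, stood at 0.262 (0.216 to 0.316) and 0.188 (0.133 to 0.258). Prom1 (prominin-1) was at 0.315 and 0.153, and Cldn5 at 0.480 and 0.288. The 17 barrier genes outside the rule summed to 2926 CPM in Control and 1902 in DPN, against 5367 and 4408 in barrier-type cells. Abcg2 and Slco1a4, at 0.268 and 0.411 in Control, are genes of the rule, as is Cldn5. Acer2, Pllp, Ptn and Csrp2 complete the 10 lowest.

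**Figure D2:**
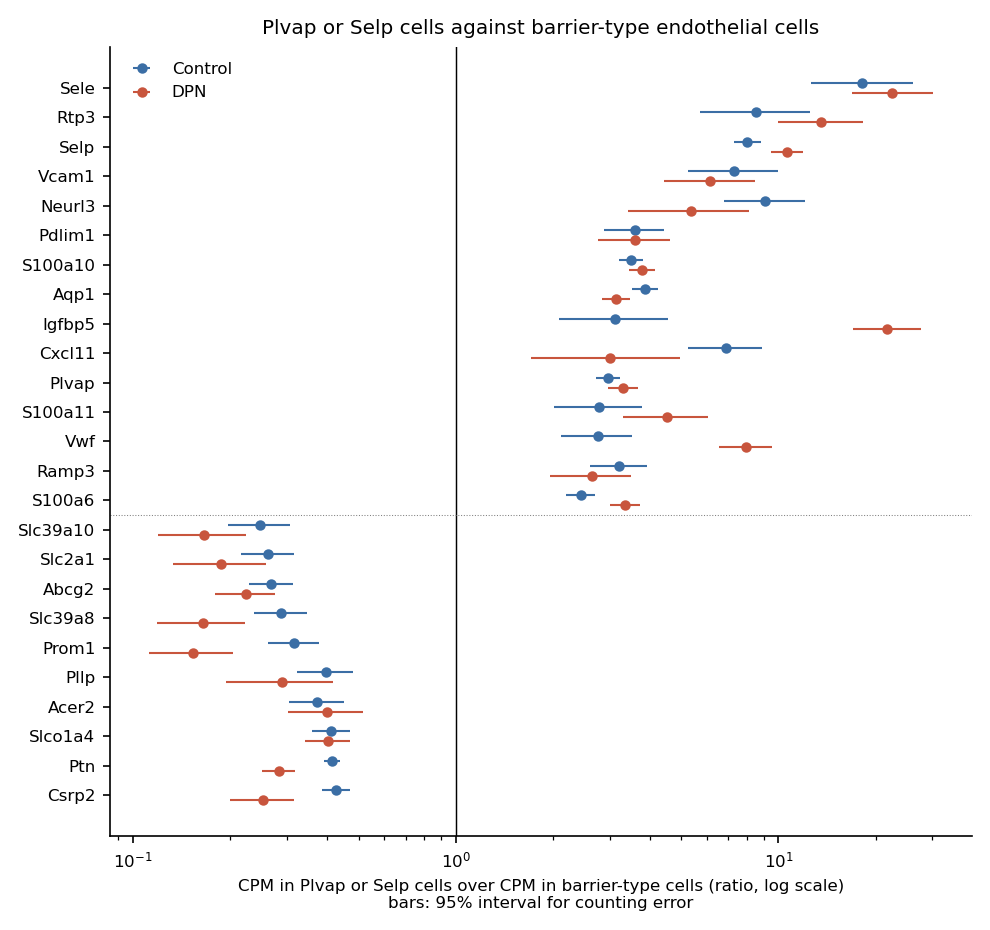
Level in the Plvap or Selp cells over the level in barrier-type cells (ratio of CPM, logarithmic axis) for the 15 highest and 10 lowest genes, in Control (blue) and DPN (red). Bars are 95% intervals for counting error, and the vertical line marks a ratio of 1. Sele is farthest to the right in both libraries, and Igfbp5 and Vwf lie farther right in DPN than in Control.

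Between Selp-led and Plvap-led cells, a contrast that also rests on genes of the rule, 29 of the 1419 genes (2.04%) were at least 2-fold higher in Selp-led cells in both libraries and 22 (1.55%) in Plvap-led cells. Sele was at 232 CPM in Selp-led and 12 in Plvap-led Control cells, and at 229 and 79.3 CPM in DPN. All but 1 of the 20 cells with Sele also had Selp (9 of 10 in Control, 10 of 10 in DPN). The interferon-induced genes Rsad2 and Apol9a, the chemokine Cxcl11 and the ubiquitin ligase Neurl3 were on the same side. Rsad2 was 3.44-fold higher in Selp-led Control cells (2.33 to 5.18) and 3.66-fold in DPN (1.60 to 9.39), though 54 of its 140 Control UMIs came from 1 cell. Slc2a1 was 6.66-fold and 2.88-fold higher in Selp-led cells. Ptpn1, Litaf and Sbno2 complete the 10 highest.

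The Plvap-led side was led by Esm1 (endocan), a secreted proteoglycan of endothelium exposed to VEGF and of sprouting tip cells. It was at 998 CPM in Plvap-led Control cells and had no UMI in the 22 Selp-led cells of either library. Cxcl12, a chemokine of capillary and arterial endothelium, was at 713 CPM in Plvap-led and 46.4 in Selp-led Control cells, and at 238 and 43.7 in DPN. Gpihbp1, which carries lipoprotein lipase across capillary endothelium and holds it on the lumen, was at 477 and 3.57 CPM in Control and at 55.9 and 10.9 in DPN. These genes met in the same cells. Of the 20 Control cells with Esm1, 17 had Cxcl12, 14 had Gpihbp1, 10 had Apln (apelin, a peptide of tip cells, named after its values were seen) and 2 had Selp. None of Esm1, Cxcl12 and Gpihbp1 was particular to the part. Cxcl12 was in 80.6% of Control and 76.2% of DPN barrier-type cells, against 47.6% and 33.3% of the cells of the part. Gpihbp1 was in 30.0% and 31.4% of barrier-type cells, against 38.1% and 15.8%. Igfbp5, the fatty acid binding protein gene Fabp5, Ccn2, Scd2, the C-type lectin gene Clec14a and the semaphorin and VEGF co-receptor Nrp1 were also higher in Plvap-led cells. Satellite glia held Fabp5 and Scd2 at 3347 and 2797 CPM in Control, above the 158 and 150 CPM of these cells.

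In DPN against Control, the lowest ratio of any gene tested was that of Esm1, so the cells of this group were compared first. Esm1 had 333 UMIs in 20 of 63 Control cells and 12 UMIs in 6 of 57 DPN cells. Its level went from 543 CPM (486 to 604) to 29.9 (15.5 to 52.2), a ratio of 0.0551 (0.0282 to 0.0976). No single cell carried the Control value, since the top cell held 46 UMIs and the ratio without the top cell of each library was 0.0423. Esm1 ranged up to 87.9 per 10000 UMIs in Control cells and up to 23.5 in DPN cells, so both fewer cells carried it and the highest DPN cell was below the highest Control cells. In satellite glia, 0.851% and 0.973% of cells had a UMI. Barrier-type cells held Esm1 at 485 and 388 CPM, in 54.4% and 50.5% of their cells (ratio 0.80, 0.769 to 0.833). Thinning to 2000 UMIs before the gate gave a partly different set of 65 Control and 57 DPN cells, with an Esm1 ratio of 0.233. Thinned ratios, medians and counts given below used that set. Fewer cells of the Esm1 kind and less Esm1 per cell cannot be told apart in the summed values, and this holds for the ratios that follow.

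Gpihbp1 and Cxcl12 stood beside Esm1. Gpihbp1 had 160 UMIs in 24 Control cells and 14 UMIs in 9 DPN cells, 261 against 34.9 CPM (ratio 0.134, 0.0715 to 0.231), while barrier-type cells had a ratio of 0.949 (0.878 to 1.03). Cxcl12 had 251 UMIs in 30 Control cells and 59 UMIs in 19 DPN cells, 28 of them in 1 cell (ratio 0.360, 0.266 to 0.479). Barrier-type cells had a Cxcl12 ratio of 0.976. When the cells with any Esm1 UMI were left out, an alternative added after the data had been seen, 43 Control and 51 DPN cells stayed. The ratio of Cxcl12 then was 1.02, that of Csrp2, a LIM-domain protein gene, moved from 0.312 to 0.926, and that of Gpihbp1 stayed low at 0.159. This split used the gene with the lowest ratio in the same data and left out 20 Control but 6 DPN cells. Of those 20 Control cells, 17 had Cxcl12 and 14 had Gpihbp1, so a higher Cxcl12 ratio largely followed from the split. The ratios without these cells describe which genes shared cells with Esm1, and nothing more is read from them. Apln (80 and 6 UMIs), its receptor Aplnr (34 and 5 UMIs) and the chemokine Ccl5 (50 and 1 UMIs), named after their values were seen, were below the minimum of UMIs, with ratios of 0.115 (0.0409 to 0.261), 0.225 (0.0687 to 0.578) and 0.0306 (0.000759 to 0.178). Of barrier-type cells in Control and DPN, 31.1% and 20.2% had Apln, 32.2% and 24.6% Aplnr and 67.9% and 58.4% Ccl5.

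**Figure D3:**
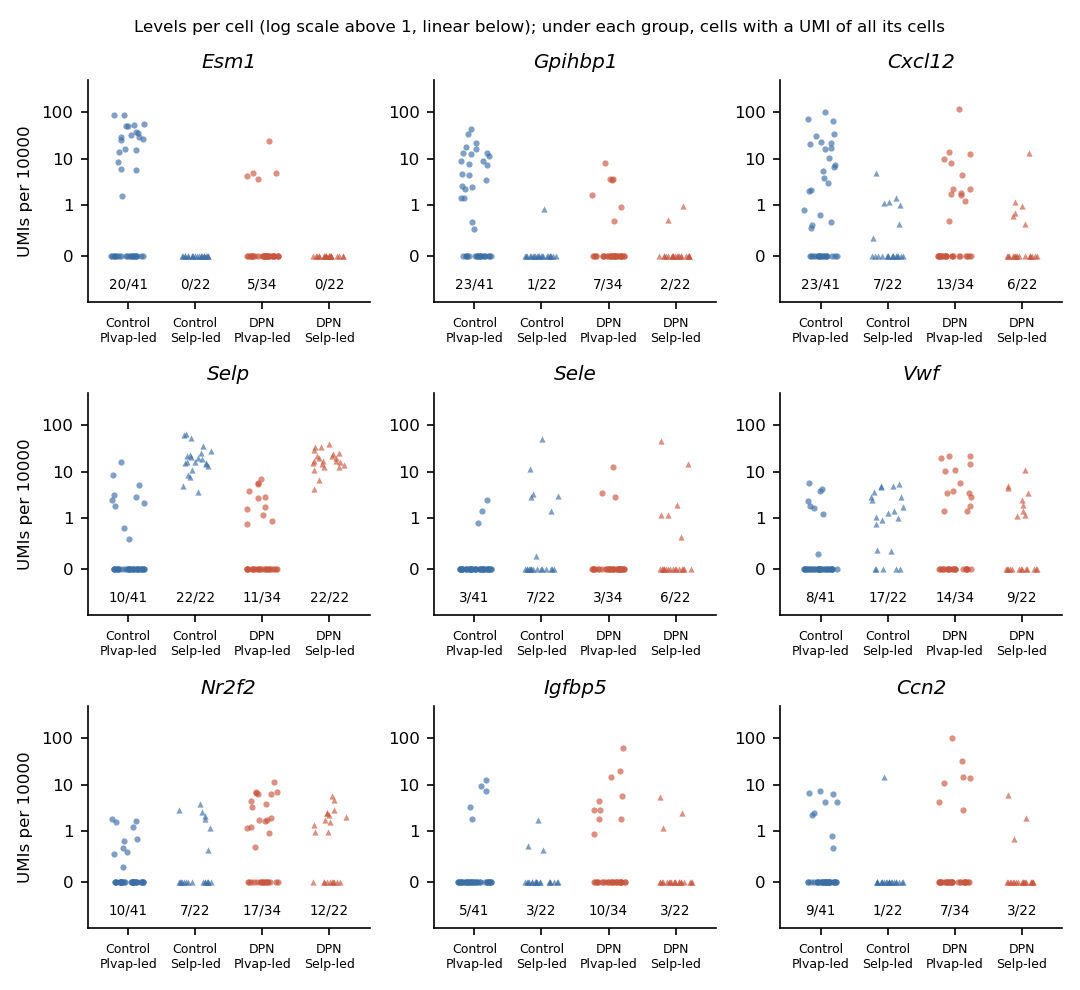
UMIs per 10000 UMIs in each cell (logarithmic above 1, linear below) for 9 genes, in Plvap-led (circles) and Selp-led (triangles) cells of Control (blue) and DPN (red). The numbers under each group are cells with a UMI of all its cells, and the 1 DPN cell with equal counts of Plvap and Selp is left out. Esm1 is in 20 of 41 Plvap-led Control cells and in 5 of 34 Plvap-led DPN cells, and Vwf in 8 of 41 and 14 of 34.

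Among the 1419 genes tested against the fold of 1.5, with an interval that left out 1, 201 were higher in DPN (14.2%) and 125 were lower (8.81%). The median log2 ratio over all of them was -0.01, and 690 (48.6%) had a ratio above 1. The call of 183 of the 201 higher and 114 of the 125 lower genes stayed when the cell with most UMIs of the gene was left out in each library. The ratio in barrier-type cells lay on the same side of 1 for 174 of the 201 and for 107 of the 125 genes. Both kinds of cell came from the same 2 libraries, and this agreement was not counted over all genes tested, so nothing is read from it.

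The lowest ratios after Esm1 and Gpihbp1 were those of Angptl4, Gdf15 and Itm2a. Angptl4, an inhibitor of lipoprotein lipase, had 180 UMIs in 26 Control cells and 25 UMIs in 12 DPN cells (ratio 0.212, 0.134 to 0.324), while the barrier-type ratio was 0.843. Satellite glia held it at 540 and 276 CPM, above these cells, and the part of their free RNA in it was not tested. Gdf15, a stress-induced cytokine, had a ratio of 0.215, but 87 of its 114 Control UMIs came from 1 cell, and without the top cells the ratio was 0.570. Itm2a, a membrane protein gene of barrier endothelium, was at 223 and 64.8 CPM (ratio 0.290, 0.183 to 0.444), against 0.701 in barrier-type cells.

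Cxcl11, described with the chemokines, and then Lcn2 and Csrp2 came next in the order. Lcn2 (lipocalin-2) was at 319 and 99.7 CPM (ratio 0.312, 0.216 to 0.440). Rnd1 had 502 UMIs in 40 Control cells and 109 in 34 DPN cells (ratio 0.332, 0.267 to 0.409), and its barrier-type ratio was 0.816. Ptn (pleiotrophin, a growth factor) had 1267 and 291 UMIs (ratio 0.351, 0.308 to 0.399), and in barrier-type cells it had a ratio of 0.514. UMIs of Ptn were in 99.9% of Control satellite glia, at 5697 CPM, so that its level in these cells, 2064 CPM, lay below that of the glia. Rsad2, Txnl4a, Tmem140 and Il4r (the interleukin-4 receptor) were between 0.361 and 0.379. Il4r was at 191 and 72.3 CPM, and in barrier-type cells it went the other way (ratio 1.19, 1.10 to 1.29).

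At the other end, Gal had the highest ratio, from few cells, and Ccn2 and Igfbp5 followed it. Ccn2, a matrix-associated target of YAP, had 39 UMIs in 10 Control cells and 179 UMIs in 10 DPN cells (ratio 7.02, 4.94 to 10.2). Of the DPN UMIs, 108 came from 1 cell, and without the top cell of each library the ratio was 3.76. Igfbp5, a secreted binder of insulin-like growth factors, had 34 UMIs in 8 Control cells and 119 UMIs in 13 DPN cells, 55 of them in 1 cell (ratio 5.35, 3.63 to 8.09, and 4.27 without the top cells). Barrier-type cells had ratios of 0.766 for Ccn2 and 0.769 for Igfbp5. Satellite glia carried Igfbp5 in 70.9% of Control and 57.9% of DPN cells and Ccn2 in 13% and 15.3%.

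Nr2f2 (COUP-TFII), the transcription factor that sets venous identity, had UMIs in 17 of 63 Control and 29 of 57 DPN cells. Its level went from 55.4 CPM (38.4 to 77.4) to 222 (178 to 273), a ratio of 4.0 (2.67 to 6.13), against 0.864 (0.764 to 0.977) in barrier-type cells. Satellite glia also carry Nr2f2 (73.9 and 109 CPM). Vwf had 76 UMIs in 25 Control cells and 139 UMIs in 23 DPN cells, 124 against 346 CPM (ratio 2.80, 2.10 to 3.75), against 0.972 in barrier-type cells. The Vwf difference lay in the Plvap-led cells, at 57.0 CPM in Control and 513 in DPN, while Selp-led cells were at 203 and 158 CPM. A ratio above 1 was thus seen among Plvap-led cells and not among Selp-led cells, and the difference between these ratios was not tested. The DPN cells with most Vwf, all Plvap-led, held 34, 19 and 16 of its 139 UMIs.

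Vwf, Igfbp5 and Nr2f2 met in the same cells. Of the cells with Igfbp5, 6 of 8 in Control and 12 of 13 in DPN had Vwf, and 6 and 10 had Nr2f2. Of the cells with Vwf, 9 of 25 in Control and 16 of 23 in DPN had Nr2f2. Cpe (carboxypeptidase E) had 63 and 113 UMIs (ratio 2.74, 2.0 to 3.80) and Ctsl (cathepsin L) 124 and 234 UMIs (ratio 2.89, 2.31 to 3.62). These rested in part on the cells that held Ccn2, since the 2 DPN cells with most Ctsl, at 72 and 65 UMIs, held 108 and 25 UMIs of Ccn2 and 23 and 21 UMIs of Cpe. Of the 10 DPN cells with Ccn2, 5 had no Cldn5 UMI, against 16 of all 57. Tll1, a venous marker named after its values were seen, had no UMI in Control cells and 12 UMIs in 9 DPN cells. Aplnr, of the same venous list and also under the minimum of UMIs, went the other way. It had 34 UMIs in 23 Control cells and 5 UMIs in 5 DPN cells.

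Gal, the neuropeptide galanin, had a ratio of 55.1 (18.3 to 271), from 3 UMIs in 1 Control cell and 108 UMIs in 6 DPN cells. A single DPN cell of 10612 UMIs held 98 of them, and it was the cell with 108 UMIs of Ccn2. Gal met both minimums through the DPN cells alone, with a UMI in 10.5% of them against 1.59% of Control cells. Nothing is read from its rank. Ccl2, a chemokine for monocytes, had 33 UMIs in 25 Control cells and 97 UMIs in 22 DPN cells, 41 of them in 1 cell (ratio 4.50, 3.0 to 6.89, and 3.62 without the top cells). Satellite glia held Ccl2 at 2569 and 1670 CPM, far above the 53.8 and 242 CPM of these cells, and in barrier-type cells it had a ratio of 0.373. The part of free glial RNA in the Ccl2 values was not tested, and with likely doublets left out the ratio was 2.76.

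The other high ratios were of broadly expressed genes. Sptbn1, the beta-spectrin of the membrane skeleton, had 135 UMIs in 48 Control cells and 349 UMIs in 46 DPN cells (ratio 3.95, 3.23 to 4.86). Its barrier-type ratio was 3.01 (2.90 to 3.12). Nufip2, Usp25, Utrn (utrophin), Ankrd12 and Kat6a, with ratios between 2.62 and 3.92, also had barrier-type ratios from 1.72 to 2.89. Lgals3 (galectin-3) differed from them, at 76.6 and 284 CPM (ratio 3.71, 2.62 to 5.33) against 0.754 in barrier-type cells. The top of the order thus held genes that were higher in both kinds of endothelial cell and, with Lgals3, Nr2f2, Igfbp5, Ccn2, Vwf, Cpe and Ctsl, genes that were higher here with a barrier-type ratio under 1. Many of the DPN UMIs of Igfbp5, Ccn2, Vwf, Cpe and Ctsl came from the same few Plvap-led cells. A cell of 17760 UMIs held 34 of Vwf, 25 of Ccn2, 21 of Cpe and 65 of Ctsl. Another, of 7523 UMIs, held 16 of Vwf, 15 of Igfbp5, 15 of Cpe and 15 of Ctsl. The difference between these cells as a whole and barrier-type cells was not tested.

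**Figure D4:**
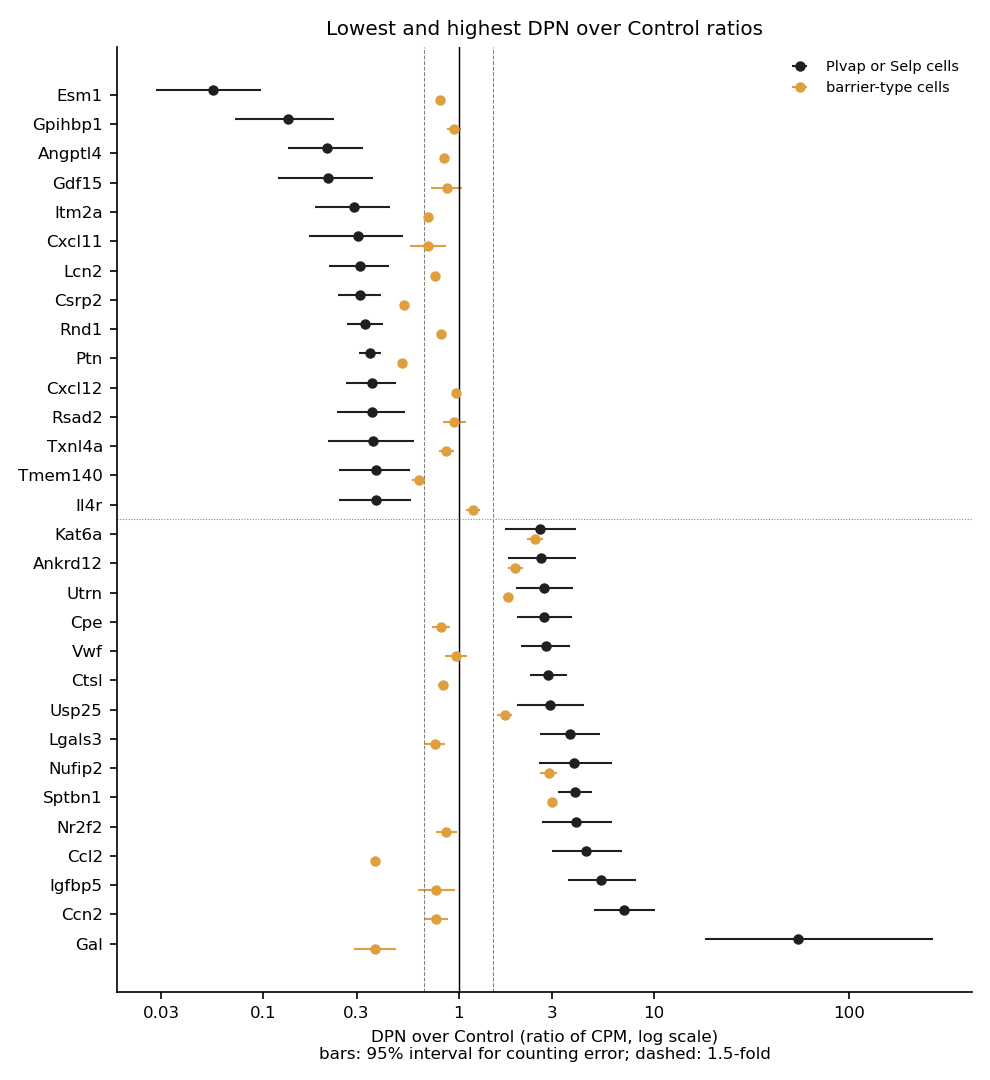
DPN over Control ratio of CPM (logarithmic axis) for the 15 genes with the lowest and the 15 with the highest ratio in the Plvap or Selp cells (black), with the ratio in barrier-type cells beside it (orange). Bars are 95% intervals for counting error, the solid line marks a ratio of 1 and the dashed lines mark 1.5-fold in each direction. Esm1 at 0.0551 and Gal at 55.1 are the extremes, and the barrier-type ratios lie nearer to 1 for most of the genes.

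The counts and medians of lists that follow leave out the genes of the rule, an alternative added after the data had been seen. Counts past the fold are to be set beside the shares over all 1419 genes tested, 14.2% higher and 8.81% lower. A count near these shares is no result about its list. Among 12 endothelial identity genes tested, Tek and Ptprb were higher and Kdr, Egfl7 and Prom1 lower (median log2 ratio -0.22, barrier-type 0.09). Cldn5, the tight junction claudin of endothelium, had 945 UMIs in 56 Control cells and 284 UMIs in 41 DPN cells, and its level went from 1540 to 708 CPM (ratio 0.460, 0.401 to 0.525), against 0.768 in barrier-type cells. As a gene of the endothelial gate it could be low only where Flt1 or Cdh5 was enough for the limit, and 7 Control and 16 DPN cells had none. Flt1, a VEGF receptor and gate gene, had a ratio of 1.41 and Cdh5 of 0.821. With the endothelial gate raised to 20 per 10000, 45 Control and 29 DPN cells stayed and the Cldn5 ratio was 0.651. Kdr was at 430 and 282 CPM (ratio 0.655, 0.520 to 0.819), while in barrier-type cells it had a ratio of 1.41. Prom1 (ratio 0.558) also had a barrier-type ratio above 1, at 1.15. Egfl7, a secreted endothelial factor, had a ratio of 0.618 and a barrier-type ratio of 0.766. Tek had a ratio of 1.80 (1.30 to 2.50) and Ptprb 1.61 (1.24 to 2.10), and in barrier-type cells the ratios were 1.24 and 1.54. Emcn, at 828 and 720 CPM, had a ratio of 0.870 (0.751 to 1.01).

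Of 3 permeable capillary markers tested, Gpihbp1 and Rgcc were lower (Rgcc 0.491, 0.400 to 0.600), none was higher and Aqp1 was at 1.18 (median log2 ratio -1.03, barrier-type -0.03). Of 6 venous markers, Sele, Vwf and Nr2f2 were higher and none was lower (median 0.58, barrier-type 0.03). The difference between the lists was not tested. With the Selp-led cells alone, the medians of the permeable capillary and the venous list were 0.13 and -0.19, each on the other side of 0 from that of all cells. Sele went from 112 to 209 CPM (ratio 1.86, 1.34 to 2.60), and with the Selp-led cells alone its ratio was 0.989. Vcam1, at 97.8 and 117 CPM, had a ratio of 1.20 (0.80 to 1.78) and Icam1 of 0.986 (0.776 to 1.25). The summed venous list went from 1002 to 1483 CPM and the summed permeable capillary list from 2095 to 1727 CPM. Of 5 barrier genes tested, Slc2a1 (ratio 0.519), Apcdd1 (0.663), Itm2a and the amino acid transporter subunit Slc3a2 (0.579) were lower and none was higher (median -0.79, barrier-type -0.34). Of 2 arterial markers tested, none was past the fold.

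Chemokines were mostly lower. Of 6 tested, Cxcl10, Cxcl11, Cxcl12 and Cx3cl1 were lower and Ccl2 was higher (median log2 ratio -1.05, barrier-type -0.54, and 0.25 with cells thinned to 2000 UMIs). Cxcl10, an interferon-induced chemokine, had 919 UMIs in 44 Control cells and 283 UMIs in 41 DPN cells (ratio 0.471, 0.411 to 0.539), and satellite glia held it at 2212 and 1797 CPM. Cxcl11 had 85 UMIs in 12 Control cells and 17 UMIs in 4 DPN cells, and 42 and 12 of them came from 1 cell in each library. Of 10 interferon response genes, Rsad2, Ifi47, Psmb9, Ifit3 and Isg15 were lower and none was higher (median -0.64, barrier-type -0.07). Ifit3 was at 714 and 389 CPM (ratio 0.545, 0.451 to 0.655) and in barrier-type cells its ratio was 1.01. Isg15 was at 505 and 287 CPM (ratio 0.567), with 0.611 in barrier-type cells. Among 6 class I presentation genes, Psmb9 and RT1-A2 (0.542) were lower, and counts of the RT1 family can be split between near-identical copies. Of 10 leukocyte adhesion genes, Sele and Jam2 (1.68) were higher and F11r (0.650) lower (median -0.03).

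Signalling receptors of vessel growth were split. Of 10 tested genes of VEGF, angiopoietin and apelin signalling, Nrp1 (ratio 1.79), Nrp2 (1.64), Tek and the vasodilator peptide gene Adm (1.5) were higher, and Kdr and Esm1 lower (median 0.47, barrier-type 0.11). Adm without the top cells was at 1.02. In coagulation, Vwf was higher and Plat, the tissue plasminogen activator, lower (164 and 42 UMIs, ratio 0.392, 0.272 to 0.553), among 8 genes. Of 5 junction genes, Jam2 was higher and F11r lower, and of 6 caveolar genes, Ehd4 (1.62) was higher. Of 2 genes of the response to flow, Klf4, a flow-induced transcription factor, was higher (1225 and 1924 CPM, ratio 1.57, 1.42 to 1.74). The Notch target Nrarp (0.510, 1 of 4 Notch genes) and the laminin chain Lamb2 (0.553, 1 of 3 basement membrane genes) were lower.

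STZ raises blood glucose, and genes of glucose and lipid handling were therefore listed. Of 8 glucose and insulin handling genes, Txnip, a glucose-induced inhibitor of thioredoxin, was higher (608 and 942 CPM, ratio 1.55, 1.34 to 1.79), as was Igfbp5. Slc2a1, Igfbp3 (0.633) and Igfbp7 (0.590) were lower. Of 3 fatty acid genes tested, Gpihbp1 and Angptl4 were lower. The metallothionein Mt1 was lower (ratio 0.545, 0.491 to 0.604), with 0.770 in barrier-type cells. Of 7 oxidative stress genes, 4 glucocorticoid response genes and 64 ribosomal protein genes, only Rpl13a (0.623) was past the fold. Among 50 nuclear respiratory chain genes 7 were lower, none was higher and 6 had a ratio above 1 (median -0.25, barrier-type -0.37). Over all genes tested, 8.81% were lower and 48.6% had a ratio above 1. Of 12 mitochondrial genome genes, Mt-atp8 was higher (1.77) and none was lower. The clock gene Nr1d1 was higher (1.64, against 2.0 in barrier-type cells). Of 3 hypoxia response genes, Adm was higher and Slc2a1 lower. Genes of class II presentation and of the cell cycle were below the minimum of UMIs, and their lists summed to 6.52 and 9.78 CPM in Control and 2.49 and 27.4 CPM in DPN.

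Chaperones of the cytosol and of the endoplasmic reticulum (ER) went opposite ways. Hspa1b, the inducible HSP70, had 6524 UMIs in 61 Control cells and 2124 UMIs in 56 DPN cells, 10630 against 5293 CPM (ratio 0.498, 0.474 to 0.523). Its near-identical copy Hspa1a had no symbol in the counts, so that Hspa1b may hold both. Hspb1 (HSP27) was at 3876 and 1999 CPM (ratio 0.516, 0.475 to 0.559), Dnajb1 at 932 and 369 (0.396, 0.328 to 0.475) and Hsph1 (HSP105) at 839 and 516 (0.615, 0.521 to 0.724). These were the 4 lower genes of 9 heat shock genes tested, and none was higher (median -0.57, barrier-type -0.41). The barrier-type ratios of Hspa1b, Dnajb1 and Hsph1 were 0.514, 0.546 and 0.686, and that of Hspb1 was 0.885.

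Hspa5, the ER chaperone BiP, had 648 UMIs in 57 Control cells and 948 UMIs in 56 DPN cells. Its level went from 1056 to 2363 CPM (ratio 2.24, 2.02 to 2.48), and per cell from a median of 9.48 to 22.7 per 10000 UMIs. Hsp90b1 (GRP94) was at 256 and 501 CPM (1.96, 1.58 to 2.43), and the disulfide isomerases Pdia3 and Pdia6 had ratios of 1.78 (1.35 to 2.36) and 1.74 (1.20 to 2.52). These were the 4 higher genes of 11 tested in the ER chaperone and unfolded protein response list, of which 10 had a ratio above 1 and none was lower (median 0.53, barrier-type 0.08). In barrier-type cells Hspa5 had a ratio of 1.74, Hsp90b1 1.60, Pdia3 1.37 and Pdia6 0.947. Satellite glia held Hspa5 at 673 and 2041 CPM. Of 17 immediate early genes, Fosb (2.30, 2.09 to 2.53), Jund (1.74) and Jun (1.56) were higher, with barrier-type ratios of 1.95, 1.75 and 1.55, and none was lower (median 0.22, and -0.04 with cells thinned to 2000 UMIs). The share higher over all genes tested was 14.2%, so this count is not read as a result about the list.

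**Figure D5:**
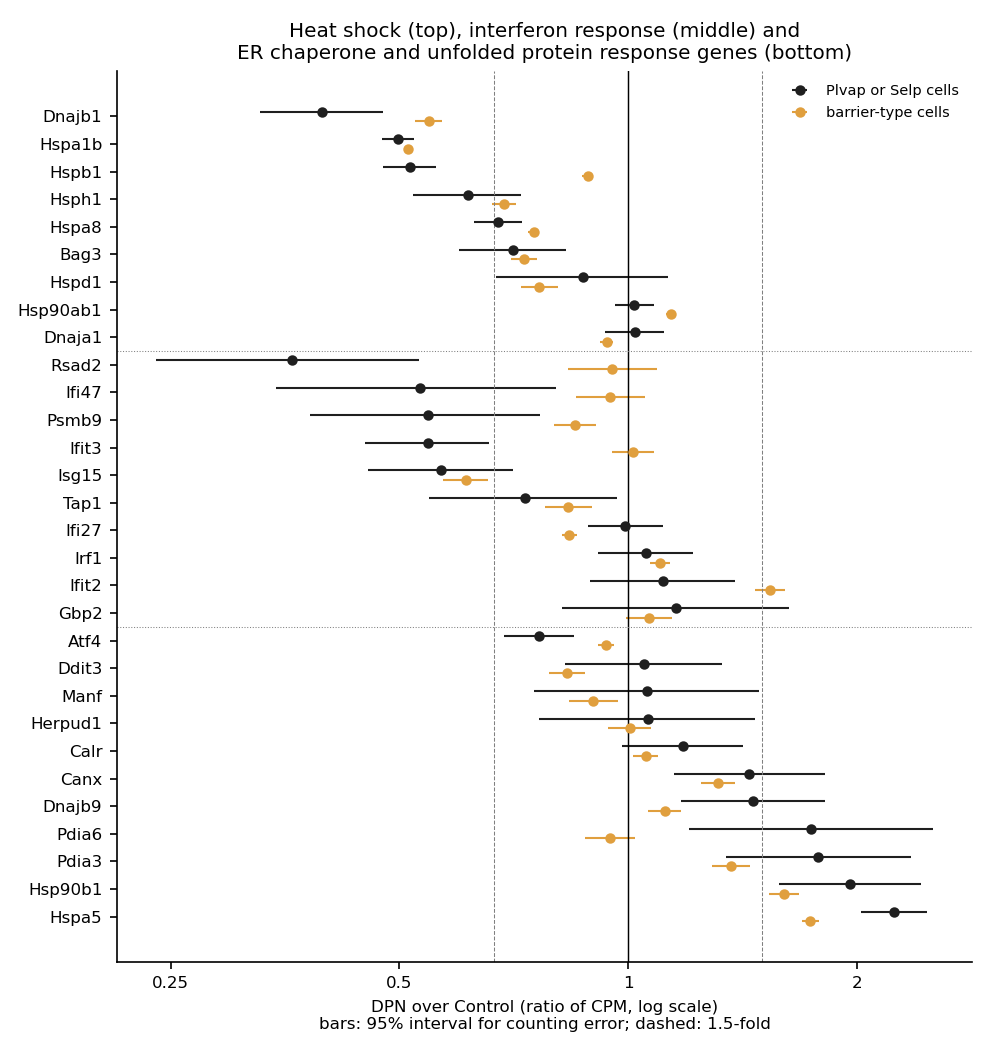
DPN over Control ratio of CPM (logarithmic axis) for the tested genes of the heat shock list (top), the interferon response list (middle) and the ER chaperone and unfolded protein response list (bottom), in the Plvap or Selp cells (black) and barrier-type cells (orange). Bars are 95% intervals for counting error and dashed lines mark 1.5-fold. Dnajb1, Rsad2 and Hspa5 lie farthest from 1 in their lists, at 0.396, 0.361 and 2.24.

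The promoters of these chaperone genes are shown because both groups are known for short control elements near the start of transcription. RefSeq (GRCr8) held promoters of 300 bases for 16 of the 20 genes of the ER list. The ER stress element, CCAAT followed after 9 bases by CCACG on either strand, was in 7 of the 16 and in 21 of all 27457 promoters (0.0765%). It was in those of Hspa5, Hsp90b1, Calr, Canx, Creld2, Dnajc3 and Xbp1. The heat shock element, GAA followed after 2 bases by TTC and after 2 more by GAA on either strand, was in 5 of 11 heat shock promoters and in 202 of all (0.736%). Of the genes that were past the fold in DPN, Hspa5 and Hsp90b1 held the first and Hsph1 the second. Calr and Canx also held the first and Dnaja1, Hspa8 and Hspd1 the second, and none of these was past the fold. Creld2, Dnajc3, Xbp1 and Hspe1 held an element and were under the minimum of UMIs. Hspb1 and Dnajb1 were past the fold and were not among the genes with a match. Whether element and call went together was not tested. The reference held no single promoter for Hspa1b, Pdia3 and Pdia6, which were also past the fold, so a missing match is no result for them. The 250 bases before the start of transcription are given on the strand of the gene, with the element in capitals. They are chr3:38452766-38453015 (plus strand) for Hspa5, chr7:23012294-23012543 (minus strand) for Hsp90b1 and chr12:10427118-10427367 (plus strand) for Hsph1. Hsp90b1 held the element in each direction. A match is a description of the letters and not a measured site of binding.
Hspa5: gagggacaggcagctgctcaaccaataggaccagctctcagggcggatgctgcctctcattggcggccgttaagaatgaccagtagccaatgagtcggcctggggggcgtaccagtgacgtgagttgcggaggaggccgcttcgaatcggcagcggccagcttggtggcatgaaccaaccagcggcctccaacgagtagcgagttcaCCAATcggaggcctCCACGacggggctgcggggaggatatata
Hsp90b1: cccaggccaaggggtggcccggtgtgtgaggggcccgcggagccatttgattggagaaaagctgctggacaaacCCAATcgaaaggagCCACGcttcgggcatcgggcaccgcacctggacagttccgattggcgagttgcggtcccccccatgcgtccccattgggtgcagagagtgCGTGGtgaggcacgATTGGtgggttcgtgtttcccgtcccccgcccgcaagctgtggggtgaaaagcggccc
Hsph1: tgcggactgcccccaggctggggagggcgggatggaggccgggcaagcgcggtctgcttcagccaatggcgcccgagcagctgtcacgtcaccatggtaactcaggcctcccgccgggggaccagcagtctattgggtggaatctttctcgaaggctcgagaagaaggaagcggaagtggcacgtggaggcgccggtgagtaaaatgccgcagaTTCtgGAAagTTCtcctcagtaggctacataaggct

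Clock gene promoters were searched for the E-box CACGTG, which was in 3 of 12 of them (Bhlhe41, Ciart and Tef) and in 1826 of all promoters (6.65%).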

How the data were processed

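Per the labels and the study's methods, droplet libraries were made with a kit of 10x Genomics, and the authors demultiplexed reads, mapped them with STAR (its version and the genome build are not given in the sources used here), then counted UMIs with Cell Ranger 3.1.0. The deposited values are raw counts of UMIs per gene and barcode. Whether the down-sampling named in the methods was applied is not stated. Identifiers sharing a symbol were added (147 symbols).

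Cells were chosen by the rule given at the start, with likely doublets kept and marked by a score from simulated doublets (0.8% per 1000 barcodes, 50 neighbours). UMIs were summed per library, scaled to CPM and compared as DPN over Control ratios with exact conditional binomial 95% intervals. Levels carry exact Poisson and shares exact Clopper-Pearson intervals. Genes needed a UMI in at least 10% of the cells of a library and at least 100 UMIs over both, and were called past 1.5-fold (2-fold in both libraries between cell types). Cells of 1 library are not replicates, so no test was made. Genes named in the text were drawn from those of the gate and markers, the 15 highest and 15 lowest DPN ratios, the 15 highest and 10 lowest against barrier-type cells, the 10 highest of Selp-led and of Plvap-led cells, and list genes past the fold or with most UMIs, without clone and locus names. Not every list gene is described. The cells, the genes and the 40 lists (634 genes) were chosen with earlier results of these data known. Pecam1, Ackr1, Car4, Cd36, Col1a2, Hba-a1, Hbb-b1, Ptgis, Hspg2 and Hspa1a are listed genes with no symbol in the counts. Alternatives changed the filters on barcodes, the gate, the lead, doublets, depth, scaling, weight of cells, the filter on genes and the kind of cell. Leaving out the top cell of a gene, the cells with Esm1 or the genes of the rule from lists was added after the data had been seen. Scripts used Python 3.11.15, numpy 2.4.6, scipy 1.17.1 and pandas 2.3.3. The ratio step was run on simulated counts without spread between cells, which cannot show whether the calls hold in these data. Promoters came from RefSeq (GRCr8).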

Additional observations from a re-analysis of the deposited data

Results flagged for a closer look

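Ccl2 and Gal went one way in the Plvap or Selp cells and the opposite way in barrier-type cells, each by more than 1.5-fold with an interval that left out 1. Ccl2 had a DPN over Control ratio of 4.50 (3.0 to 6.89, from 33 and 97 UMIs) and, in barrier-type cells, of 0.373 (0.355 to 0.392, from 4502 and 2303 UMIs). Gal had a ratio of 55.1 (18.3 to 271, from 3 and 108 UMIs, 98 of the latter in 1 cell) and, in barrier-type cells, of 0.374 (0.291 to 0.479, from 193 and 99 UMIs). Gal met the minimums only through the DPN cells, where it was high, so nothing is read from its direction. With 1 library per condition, the difference between the 2 kinds of cell was not tested for either gene.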

How the results depend on the processing

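With 1 pool per condition, rats, preparation and depth cannot be told apart from the condition, and no replicate could be left out. No paired analysis was possible because 1 pool stood for each condition. The depth, with 120 cells, left most genes under the minimum of UMIs. Each cause of the changes below was not tested, except that fewer cells, UMIs or genes enter most of them.

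The share of kept barcodes was 1.89% in Control and 1.46% in DPN with under 10% mitochondrial UMIs, 0.459% and 0.263% with the endothelial gate at 20 per 10000, and 0.788% in DPN with AY172581 genes counted as mitochondrial. The Selp-led share moved by less than its interval in each setting run. Genes higher in DPN numbered 74 (gate at 20, 820 tested), 24 (thinned to 2000 UMIs, 309 tested), 878 (no filter), 36 (at least 300 UMIs, 434 tested), 62 (Selp-led only, 628 tested) and 84 (Plvap-led only, 712 tested). Genes lower in DPN numbered 77, 35, 311, 38 and 70 in the first 5 of these. Genes above barrier-type cells numbered 5 thinned, 96 without the filter and 10 at 300 UMIs, and genes below them 0 thinned, 10 at the gate of 20, 12 with cells weighted equally (by fold alone), 118 without the filter and 6 at 300 UMIs.

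Ratios that changed side were, in Selp-led cells, Adm (0.383), Apcdd1 (1.11), Gpihbp1 (3.06), Igfbp3 (1.01), Rgcc (1.10), S100a11 (0.980), Sele (0.989) and Vwf (0.779), in Plvap-led cells, Ifi47 (1.12) and Slc2a1 (1.01), at the gate of 20, Adm (0.291) and Cxcl11 (1.05), and thinned, Cxcl11 (5.70), Lamb2 (2.0), Ndufa11 (1.07), Neurl3 (1.14), Nr1d1 (0.912) and Scd2 (1.60). Igfbp3 was at 1.14 without likely doublets, and Cxcl12 (1.02) and Slc39a8 (1.23) changed side without the Esm1 cells, which left 166 genes higher and 117 lower, of which 148 and 82 were called with all cells. No other named gene with a call changed side in the settings run. Beside these, ratios of named genes left their interval in 71 cases thinned, 54 in Selp-led cells, 53 at the gate of 20, 42 in Plvap-led cells, 35 with cells weighted equally, 25 without the Esm1 cells and at most 15 in each other setting. With lists stripped of the genes of the rule, none of 8 list medians moved by 1.5-fold. Scaling by median ratios or without mitochondrial UMIs changed no side.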
